A study of Homo sapiens with 13 samples.

Results

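Cells labelled TE11, a line that the labels give as human esophageal squamous cell carcinoma, were kept for 48 h with 25 µM 5-fluorouracil (5-FU, 3 libraries) or with 0.1% DMSO, the vehicle (4 libraries), and total RNA was sequenced. These 7 of 13 libraries were taken by their labelled treatment and no measured value, and the comparison covers the 19514 of 60591 genes in the table that passed a filter on low counts. The other 6 libraries held 10 µM chloroquine alone or 10 µM chloroquine with 25 µM 5-FU, 3 of each, and serve here as a second setting of the same drug step. The series' title concerns chloroquine as a partner of 5-FU through p53 signalling. All groups share 1 cell line, the labels name DMSO for the vehicle arm only, and whether replicates came from separate cultures is not said. The p-values therefore measure only the spread between these samples, which may be technical.

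5-FU is a uracil analogue that cells convert into fluorinated nucleotides. The deoxyribonucleotide form blocks thymidylate synthase and leads to uracil and fluorouracil in DNA, while the ribonucleotide form enters RNA, where it interferes with pseudouridine formation, rRNA maturation and RNA decay by the exosome. Ribosomal proteins released when ribosome assembly stalls can bind MDM2, the ubiquitin ligase that holds p53 down, so RNA damage and DNA damage both lead to p53.

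Total counts ran from 18927168 to 23679833 per library. Vehicle 4 and 5-FU 2 stood apart from the other 5: 115 genes had at least 30 counts in vehicle 4 and at most 3 in each of vehicle 1 to 3 and 5-FU 1 and 3, and 74 genes did so in 5-FU 2, of which 65 were shared. These genes made up 0.0399% of the counts of vehicle 4 and 0.0250% of those of 5-FU 2. Transcripts of other tissues with a few more counts elsewhere had the same pattern, such as the collagen gene COL1A2 (7, 5, 1 and 741 counts in vehicle 1 to 4 and 1, 159 and 3 in 5-FU 1 to 3) and the amylase gene AMY1A (3, 0, 2 and 253 against 1, 292 and 4). Of 28 squamous differentiation markers 21 had at most 10 counts in every one of the 7 libraries and 12 had none at all, IVL and KRT13 among the former. Most of these differentiation markers were thus absent or nearly so. Of 18 basal epithelial markers 4 had at most 10 counts throughout, among them KRT5 with none and TP63 with at most 3 in any library. DSP, DSC3, KRT18, SOX2 (192 to 353 counts) and ITGA6 (583 to 884 counts) were present, and so were the neurofilament genes NEFL and NEFM (1579 to 2740 and 971 to 1699 counts).

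5-FU moved most of the genes that could be tested. Called at an adjusted p under 0.05 (edgeR quasi-likelihood test, Benjamini-Hochberg over all tested genes), 6003 genes rose (30.8% of those tested) and 5756 fell (29.5%), which is 60.3% in either direction. Large rises outnumbered large falls: 2142 genes (11%) rose by at least 1 on the log2 scale and 593 (3.04%) fell by at least 1. In 29.8% of the tested genes all 5-FU libraries lay above all vehicle libraries, and in 28.3% all lay below. The median log2 fold change over all tested genes was 0.01 with TMM scaling, which sets the libraries level on the bulk of genes, and 0.20 with library size alone. That scaling called 8291 genes up and 3669 down, and values below are relative to the TMM scaling. Without vehicle 4 and 5-FU 2 the counts were 5809 and 5591. Counts in bulk RNA are shares of a library, and fewer cells with a transcript and less of it per cell cannot be told apart.

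The direction differed by the level of a gene, by its length and, for pseudogenes, by its class. Among 1014 tested antisense genes 453 rose (44.7%) and 66 fell (6.51%), and among 754 long intergenic RNA genes 337 rose and 65 fell, with median log2 fold changes of 0.55 and 0.51. Most of them were scarce. With protein-coding genes cut into 4 classes of equal size by level, 925 of the antisense genes lay in the range of the lowest, where 43.7% rose and 5.62% fell, and the 3415 protein-coding genes of that range had shares of 45.3% and 9.37%. The 13659 protein-coding genes split into 4355 rises and 4692 falls. Processed pseudogenes, which are retrocopies of mRNAs and can take reads from their parent genes, went the other way, with 114 rises and 654 falls of 2054 (median -0.34), and at the lowest level too 6.04% of them rose and 16.8% fell. The kit was directional, but the strand setting of the counting is unknown here, and reads of an antisense gene and its partner may be mixed.

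**Figure D1:**
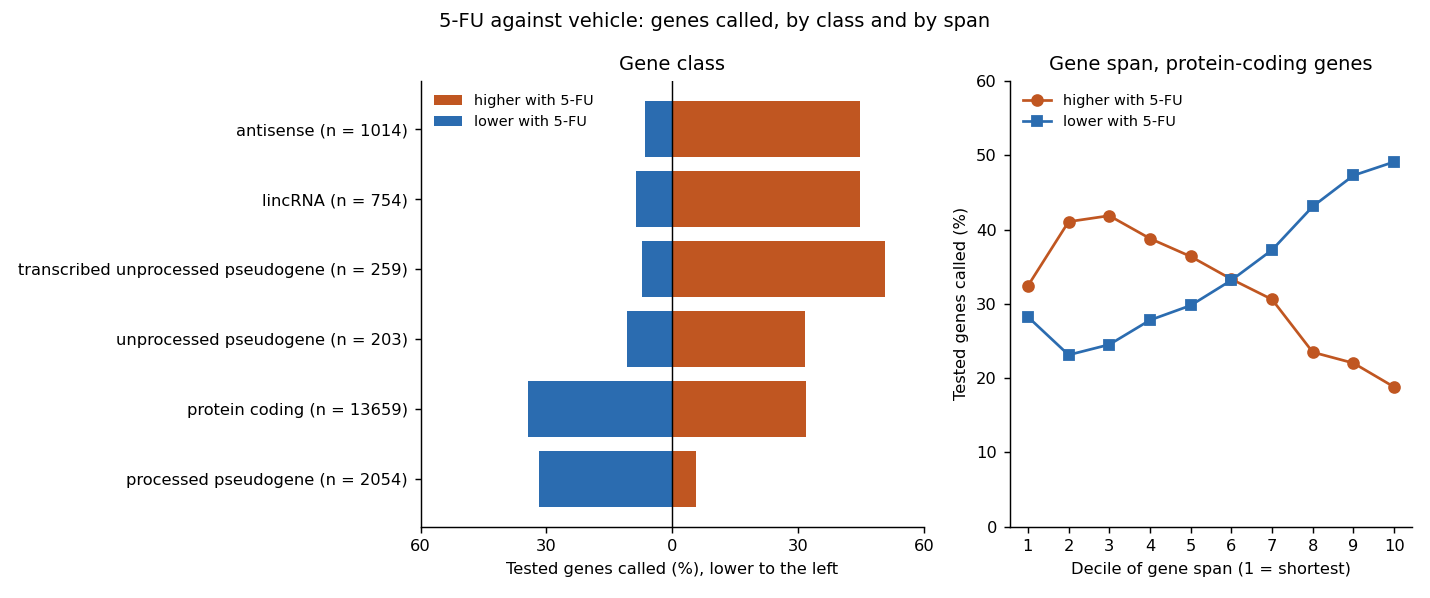
Share of tested genes called higher (orange) or lower (blue) with 5-FU, in percent, by gene class (left, with the number of genes tested) and by decile of gene span among protein-coding genes (right, shortest to longest). Antisense and long intergenic genes extend to the right and processed pseudogenes to the left, and the lines cross between short genes, of which up to 41.9% rose, and the longest, of which 49.1% fell.

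Protein-coding genes were also ordered by span, the distance from the start to the end of the gene including introns. In the second decile (5.70 to 10.5 kb) 41.1% rose and 23.1% fell, and in the longest decile (174 to 2305 kb) 18.8% rose and 49.1% fell, with medians of 0.16 and -0.22. With library size alone these medians became 0.35 and -0.03, so the step between them stayed and its place against 0 moved. Over the 4 level classes the median went from 0.49 in the lowest level class to -0.19 in the highest. In the highest level class 633 of 3415 genes rose and 1811 fell, which is the background for lists of abundant genes. Lists that fell were not tested against genes of their own level. Within each level class the longest decile still lay below the second decile, at 0.25 against 0.65 in the lowest level class and -0.31 against -0.15 in the highest. Read coverage along genes was not analysed here.

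The largest changes were taken among called genes with a mean of at least 1 log2 CPM, no overlap between the groups and no clone-style name. The stress cytokine gene GDF15, a target of p53, led the 10 largest rises. It read 0.330, 0.171, 0.584 and 0.567 CPM (TMM-scaled CPM, each library's counts brought to a common total) in vehicle 1 to 4 and 30.7, 24.1 and 24.8 CPM in 5-FU 1 to 3. Every 5-FU library exceeded every vehicle library by a wide margin, the log2 fold change being 5.95 ± 0.183 (edgeR adjusted p = 1.15e-11; here and below ± is the SE of a log2 fold change). ANKRD1, which encodes a cardiac ankyrin repeat protein and is a classical YAP target, came next with 0.824, 0.799, 0.584 and 0.980 CPM in vehicle and 12.6, 16.3 and 13.996 CPM with 5-FU, a change of 4.16 ± 0.179 (edgeR adjusted p = 2.49e-10). OSTN, which encodes the secreted peptide osteocrin, rose by 3.92 ± 0.167 and RENBP, renin-binding protein, by 3.60 ± 0.149. LIF, a cytokine of the interleukin 6 family, went from 0.659, 0.685, 0.827 and 0.877 to 8.72, 7.54 and 8.77 CPM (3.44 ± 0.138), with all 5-FU values far above all vehicle values. APOE, the lipid carrier, read 2.86, 2.85, 2.72 and 2.47 CPM in vehicle and 37.9, 23.96 and 26.6 CPM with 5-FU (3.43 ± 0.172), and 5-FU 1 was the highest. ANXA1, annexin A1, went from 4.28–7.01 to 53.1–60.1 CPM (3.41 ± 0.116). The remaining rises were in MAP2, a neuronal microtubule protein (3.28 ± 0.171), the phosphodiesterase gene PDE11A (3.18 ± 0.102) and SYTL5, a synaptotagmin-like vesicle protein (3.15 ± 0.165).

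**Figure D2:**
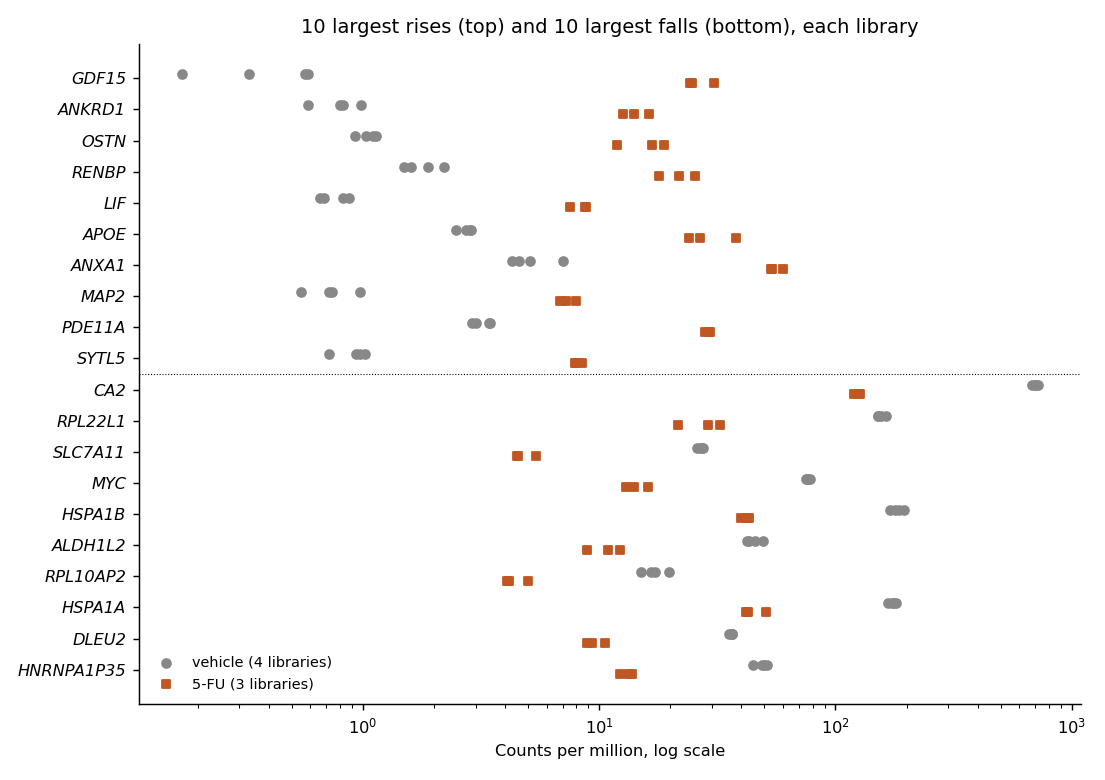
CPM on a log axis for the 10 largest rises (above the dotted line) and the 10 largest falls, with 1 circle per vehicle library (n = 4) and 1 square per 5-FU library (n = 3). Circles and squares of a gene do not overlap in any of the 20 rows, which the rule for naming them required.

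CA2, carbonic anhydrase 2, had the largest fall. Its values were 718, 708, 697 and 679 CPM in vehicle and 119, 127 and 126 CPM with 5-FU, tight within each group, for a change of -2.50 ± 0.0445 (edgeR adjusted p = 9.44e-14). RPL22L1, the paralogue of ribosomal protein L22, dropped from 164, 152, 156 and 152 to 21.5, 32.5 and 28.9 CPM (-2.49 ± 0.113), lowest in 5-FU 1. SLC7A11, the cystine importer that feeds glutathione synthesis, went from 27.5, 25.96, 27.3 and 26.7 to 4.50, 5.38 and 4.55 CPM (-2.48 ± 0.0844). The transcription factor gene MYC read 75.3, 76.5, 75.5 and 77.7 CPM in vehicle and 16.03, 13.98 and 12.96 CPM with 5-FU (-2.42 ± 0.0761, edgeR adjusted p = 1.34e-11), so the vehicle libraries were nearly equal and all 5-FU libraries lay far below. HSPA1A and HSPA1B, near-identical genes of inducible heat shock protein whose reads cannot be split with certainty, fell together (-1.95 ± 0.0683 and -2.13 ± 0.0577). ALDH1L2, a mitochondrial folate enzyme, went from 42.2–49.6 to 8.86–12.2 CPM (-2.08 ± 0.0930). DLEU2, the long RNA that hosts a microRNA cluster, was at -1.92 ± 0.0939, and the pseudogenes RPL10AP2 and HNRNPA1P35, whose reads may belong to RPL10A and HNRNPA1, were at -1.96 ± 0.107 and -1.89 ± 0.103. Of 6 tested carbonic anhydrase genes CA2 and CA8 (-1.17 ± 0.0719) fell, CA11 rose (1.11 ± 0.0796) and 3 did not pass.

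Genes for the uptake, activation and breakdown of 5-FU moved in both directions. Of 13 tested activating enzymes 5 rose, 7 fell and 1 did not pass, and with library size alone 6 rose and 3 fell. UCK2, the main uridine-cytidine kinase of tumour cells, read 135, 130.3, 131 and 122 CPM in vehicle and 82.7, 63.5 and 75.7 CPM with 5-FU. Its groups did not overlap (-0.81 ± 0.0812, edgeR adjusted p = 9.38e-07), whereas its paralogue UCK1 rose (0.45 ± 0.0653). UMPS, which turns 5-FU straight into its monophosphate, fell slightly (-0.18 ± 0.0433, from 161–168 to 144–148 CPM), a direction that flipped to 0.02 with library size alone. UPP1 and TK1, which lead through the nucleosides, rose by 0.34 ± 0.109 and 0.35 ± 0.104 with overlapping libraries. Without 5-FU 1 neither was called (0.29 and 0.19), and UPP1 was not called without 5-FU 3 (0.31). The small subunit genes of ribonucleotide reductase went apart: RRM2, the S-phase form, fell from 329–338 to 212–245 CPM (-0.52 ± 0.0527) and RRM2B, the p53-inducible form, rose from 67.7–70.5 to 82.8–103 CPM (0.44 ± 0.0645). DPYD, the enzyme that degrades 5-FU, was near the limit of detection (0.114–0.440 CPM in vehicle and 0.194–0.644 CPM with 5-FU) and did not pass (edgeR adjusted p = 0.365). The carrier gene SLC29A1 fell (-0.38 ± 0.0683), and of 5 tested export pumps ABCC10 (0.96 ± 0.0953) and ABCB1 (0.59 ± 0.0575) rose while ABCC4 fell (-0.99 ± 0.0864).

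TYMS, thymidylate synthase and the enzyme that the drug blocks, was at 100.1, 101, 99.7 and 102 CPM in vehicle and 131, 117 and 119 CPM with 5-FU. All 5-FU libraries lay above all vehicle libraries, by a small step (0.28 ± 0.0509, edgeR adjusted p = 0.000257). DUT, which removes dUTP before it enters DNA, fell (-0.47 ± 0.0662), with 137–158 CPM in vehicle and 93.6–116 CPM with 5-FU, and so did DCTPP1, another nucleotide pyrophosphatase (-0.46 ± 0.0670). In the pathway that makes uridine nucleotides anew, 3 of 5 genes fell (2 with library size alone), and DHODH, a mitochondrial enzyme, went from 23.7, 20.9, 23.3 and 19.6 to 10.1, 8.97 and 9.85 CPM (-1.19 ± 0.0768).

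Genes of serine synthesis and folate one-carbon metabolism fell as a block. Of 18 tested members 17 fell and 1 rose (16 and 2 without vehicle 4 and 5-FU 2), with a median log2 fold change of -0.69 against 0.01 over all tested genes. All 3 genes of serine synthesis fell (median -1.41), as did all 7 tested genes of the mitochondrial folate branch (median -1.08) and 7 of 8 of the cytosolic branch (median -0.51). SHMT2, mitochondrial serine hydroxymethyltransferase, read 267, 255, 256 and 243 CPM in vehicle and 86.4, 76.8 and 82.1 CPM with 5-FU (-1.64 ± 0.0579, edgeR adjusted p = 3.8e-11), roughly level within each group and far apart between them. PHGDH, which opens serine synthesis, went from 573–660.4 to 183–262 CPM (-1.51 ± 0.0988). PSAT1, the next enzyme, went from 360.0–383 to 131–143 CPM (-1.41 ± 0.0467). MTHFD2 fell by less (-0.92 ± 0.0458).

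On the RNA side, most genes of ribosome production were lower. Of 49 tested genes of rRNA processing and ribosome assembly 40 fell, 1 rose and 8 did not pass (median -0.52). UTP20, a scaffold of the small subunit processome, read 88.7, 98.3, 99.02 and 106 CPM in vehicle and 39.7, 42.9 and 41.03 CPM with 5-FU. The 5-FU libraries agreed closely and none reached the vehicle range (-1.25 ± 0.0681, edgeR adjusted p = 2.48e-09). NPM1, the abundant nucleolar protein nucleophosmin, went from 1309, 1229, 1238 and 1228 to 455, 588 and 574 CPM (-1.21 ± 0.0701), lowest in 5-FU 1. NCL, nucleolin, and NOP56, a core protein of box C/D snoRNPs, fell by similar amounts (-0.71 ± 0.0485 and -0.69 ± 0.0365), as did GNL3, nucleostemin (-0.86 ± 0.0506). The rise was in NOP2, an rRNA methyltransferase (0.26 ± 0.0927), and it was not called without vehicle 2 (0.19), 5-FU 1 (0.24) or 5-FU 3 (0.24).

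MYC, among the largest falls, is known to bind the E-box letters CACGTG at promoters of ribosome genes. A promoter was found by symbol for 11738 of 19514 tested genes. CACGTG was present within 250 bases before to 50 bases after the start of 17 of 42 rRNA processing genes with a promoter in the RefSeq table (40.5%), of 9.98% of tested genes and of 7.43% of all 27305 promoters of that length (these letters read the same on both strands). Genes of the list with the letters fell about as often as those without, 13 of 17 against 21 of 25, with medians of -0.56 and -0.51. The 250 bases before the start are printed for 3 genes that fell, 1 each from rRNA processing, pseudouridine formation and pyrimidine synthesis, from the RefSeq table of GRCh38.p14, 5′ to 3′ on the gene's strand with the E-box letters in capitals. They lie at chr12:101279855-101280104, plus strand (UTP20), chr11:126211651-126211900, minus strand (RPUSD4) and chr16:72008494-72008743, plus strand (DHODH). The letters are a description of the sequence, and no binding was measured.
UTP20: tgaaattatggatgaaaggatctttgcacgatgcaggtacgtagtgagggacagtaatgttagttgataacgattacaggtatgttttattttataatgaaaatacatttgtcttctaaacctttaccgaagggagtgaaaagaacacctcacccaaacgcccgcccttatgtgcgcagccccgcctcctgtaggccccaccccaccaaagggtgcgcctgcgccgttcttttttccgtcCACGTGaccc
RPUSD4: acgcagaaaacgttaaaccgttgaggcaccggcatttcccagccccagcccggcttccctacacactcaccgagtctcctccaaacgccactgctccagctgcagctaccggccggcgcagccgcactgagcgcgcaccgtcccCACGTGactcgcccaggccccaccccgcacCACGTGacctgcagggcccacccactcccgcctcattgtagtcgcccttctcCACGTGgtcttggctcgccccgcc
DHODH: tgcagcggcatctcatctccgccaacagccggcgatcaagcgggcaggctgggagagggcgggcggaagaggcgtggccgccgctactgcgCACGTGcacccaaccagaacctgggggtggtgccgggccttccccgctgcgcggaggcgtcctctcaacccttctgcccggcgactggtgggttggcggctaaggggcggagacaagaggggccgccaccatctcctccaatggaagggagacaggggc

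Enzymes that 5-FU in RNA is known to disturb were lower in part. Of 13 tested pseudouridine synthases 7 fell, none rose and 6 did not pass in this edgeR fit, and without vehicle 4 and 5-FU 2 the counts were 7 and 1. RPUSD4, which modifies mitochondrial RNA and whose promoter is printed above with 3 E-box matches, read 47.8, 47.5, 49.5 and 44.2 CPM in vehicle and 26.9, 22.7 and 28.8 CPM with 5-FU (-0.85 ± 0.0838). PUS7 fell (-0.72 ± 0.0622) and DKC1, dyskerin, the catalytic subunit of box H/ACA snoRNPs, went from 331–382 to 277–296 CPM (-0.32 ± 0.0711, not called with library size alone). Of 15 tested subunits and cofactors of the RNA exosome, the complex that trims and degrades nuclear RNA, 13 fell, none rose and 2 did not pass (median -0.28). The count of rises in the pseudouridine and exosome lists was 0 at an unadjusted p under 0.05 and with DESeq2 as well. With library size alone both lists had rises: 4 pseudouridine synthases fell and 3 rose (median -0.06 against -0.26), and 4 exosome genes fell and 1 rose. EXOSC5 and EXOSC8 fell (-0.73 ± 0.124 and -0.57 ± 0.0514), DIS3, a catalytic subunit, fell by less (-0.21 ± 0.0597, not called with library size alone). RNA polymerase I, which transcribes rRNA, had 7 falls, 1 rise and 7 genes that did not pass of 15, and its median of -0.14 turned to 0.05 with library size alone (2 falls and 3 rises). The subunit genes CD3EAP (-0.84 ± 0.0629) and POLR1A (-0.47 ± 0.0630) fell and TAF1C, part of the promoter factor, rose (0.50 ± 0.101).

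Cytosolic ribosomal protein genes were lower almost throughout. There were 70 falls and 3 rises among 78 tested, and 5 did not pass (median -0.66), alike in the large subunit (43 of 46 fell) and the small (27 of 32). Their summed share of all counts was 4.12, 3.88, 3.93 and 3.71% in vehicle 1 to 4 and 2.73, 2.77 and 2.85% in 5-FU 1 to 3. The groups did not overlap: 3.91% ± 0.172 (SD, n = 4) in vehicle against 2.78% ± 0.0621 (SD, n = 3), a difference of -1.13 percentage points with an exact two-sided permutation p of 0.0286, the smallest that 35 splits allow. Examples were RPL3 (1018–1122 to 364–445 CPM, -1.41 ± 0.0583), RPL10A (-1.53 ± 0.0605) and RPS6 (-0.83 ± 0.0422), and RPS28 (0.51 ± 0.0750) was 1 of the 3 rises. Many of these genes have near-identical pseudogenes, so each is uncertain by itself. The mRNAs of proteins that carry the ribosome signal to MDM2 were lower as well, and the proteins were not measured. RPL5 read 1296, 1204, 1259.9 and 1181 CPM in vehicle and 667, 669.6 and 751 CPM with 5-FU (-0.83 ± 0.0515). RPL11, its partner in the 5S particle, fell by less (-0.49 ± 0.0570). RPS27L, a p53-inducible paralogue of RPS27, was the rise among 8 such genes (59.1–67.2 to 79.7–105 CPM, 0.62 ± 0.0834).

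**Figure D3:**
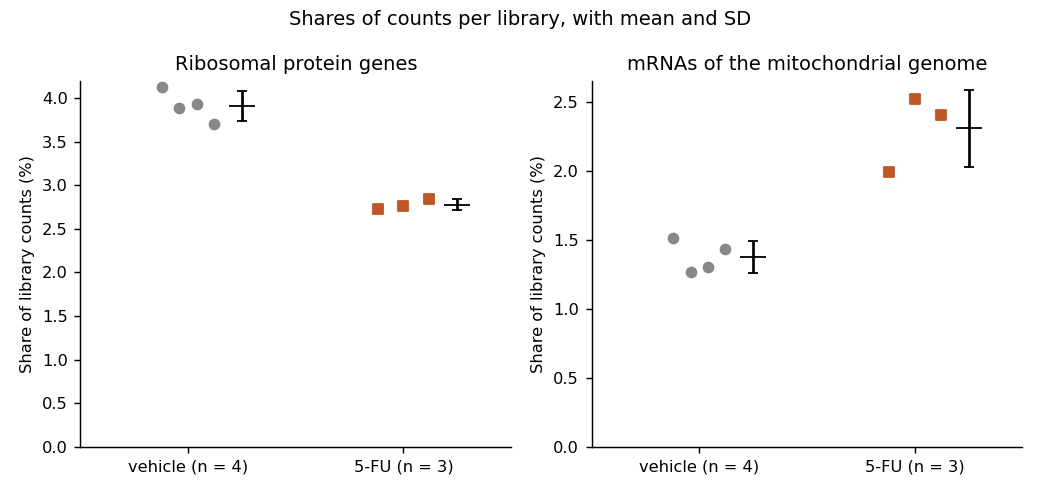
Summed counts of 78 ribosomal protein genes (left) and of 13 mRNAs of the mitochondrial genome (right) as a percent of each library's counts, with 1 point per library and the mean and SD beside them. Every 5-FU library lies below every vehicle library on the left (at most 2.85 against at least 3.71%) and above on the right (at least 2.00 against at most 1.52%).

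Translation and splicing genes were mostly lower too. Translation factors had 29 falls and 4 rises of 39 tested (median -0.33): EEF1A1 (-1.20 ± 0.0631), EEF2 (-0.54 ± 0.0659) and EIF5A (-1.34 ± 0.0940) fell, and EEF1D rose (0.59 ± 0.0690). Splicing factors of the SR and hnRNP families were lower in 26 of 28 (median -0.69), with 1 rise, SRSF11 (0.20 ± 0.0587), which was not called without 5-FU 2 (0.12). SRSF1 read 341, 331, 318 and 297 CPM in vehicle and 101, 129 and 119 CPM with 5-FU (-1.46 ± 0.0885), and HNRNPA1 653, 622, 593 and 535 and 226, 252 and 259.7 CPM (-1.29 ± 0.0708), so neither gene's groups came near each other. Of 18 snoRNA hosts and nuclear long RNAs 7 rose and 8 fell (median -0.08), with no common direction. MALAT1, the largest rise among them, was at 66.6, 67.7, 67.4 and 60.7 CPM in vehicle and 173, 254 and 215 CPM with 5-FU (1.70 ± 0.113), and NEAT1, the scaffold of paraspeckles, at 35.01, 37.5, 33.6 and 33.3 and 98.1, 108 and 110.3 CPM (1.60 ± 0.0600, edgeR adjusted p = 7.16e-11). Of the snoRNA hosts, SNHG5 (-1.32 ± 0.0943) and SNHG16 (-0.97 ± 0.0718) fell. Next to MYC in its network, MXD1, which competes for the same partner protein, rose (0.50 ± 0.0698) and MYCL fell (-0.80 ± 0.121).

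Targets of p53 rose as a group. Of 18 targets in cell cycle arrest and DNA repair 16 rose and 2 fell (median 0.75), of 13 in cell death 9 rose and none fell (median 0.41), and of 19 in metabolism and signalling 12 rose and none fell (median 0.43), where 30.8% of all tested genes rose. The count of falls in the death and the metabolism lists was also 0 at an unadjusted p under 0.05 and with DESeq2. CDKN1A, which encodes the cyclin kinase inhibitor p21, went from 32.9, 32.1, 31.1 and 30.6 to 157, 131 and 144 CPM. The vehicle libraries were close to each other and the 5-FU libraries several times higher (2.19 ± 0.0684, edgeR adjusted p = 1.27e-11). DDB2, a DNA damage recognition protein, read 24.7, 24.9, 24.7 and 25.01 CPM and 94.2, 89.6 and 93.3 CPM (1.89 ± 0.0475), again with tight groups far apart. BTG2 (0.81 ± 0.0665) and XPC (0.24 ± 0.0555) rose by less. PCNA (-0.35 ± 0.0498) and the helicase gene ASCC3 (-0.56 ± 0.0814) were the falls, PCNA being a replication clamp as well as a target.

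Within the death branch, TP53I3, a quinone oxidoreductase, rose most (5.54–7.25 to 23.6–29.7 CPM, 2.08 ± 0.0981), then PIDD1, a death domain scaffold (1.75 ± 0.108). FAS, a death receptor, went from 10.2, 10.4, 10.6 and 12.4 to 20.97, 28.7 and 25.5 CPM (1.20 ± 0.0984), and TNFRSF10B, the TRAIL receptor, from 81.7–85.7 to 156–165 CPM (0.94 ± 0.0436). The mitochondrial killers rose by less: BBC3 (PUMA) by 0.81 ± 0.110, BAX by 0.41 ± 0.0991 and PMAIP1 (NOXA) by 0.33 ± 0.0701. Of the signalling branch, ABCA12, a lipid transporter, was at 0.0486–0.114 CPM in vehicle and 0.279–0.726 CPM with 5-FU (2.76 ± 0.526), at the edge of detection, and DRAM1, a lysosomal membrane protein (1.29 ± 0.177), and NINJ1, which ruptures the plasma membrane of dying cells (0.44 ± 0.0797), also rose. The genes that hold p53 in check split. MDM2 read 116, 108, 115 and 111 CPM in vehicle and 140.2, 169.6 and 158 CPM with 5-FU, without overlap (0.47 ± 0.0708, edgeR adjusted p = 4.76e-05), TP53INP1 rose (1.27 ± 0.0924), COP1 (-0.59 ± 0.0519) and USP7 (-0.49 ± 0.0473) fell, and the other 5 of 9 regulators did not pass (with library size alone 6 rose and 2 fell).

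**Figure D4:**
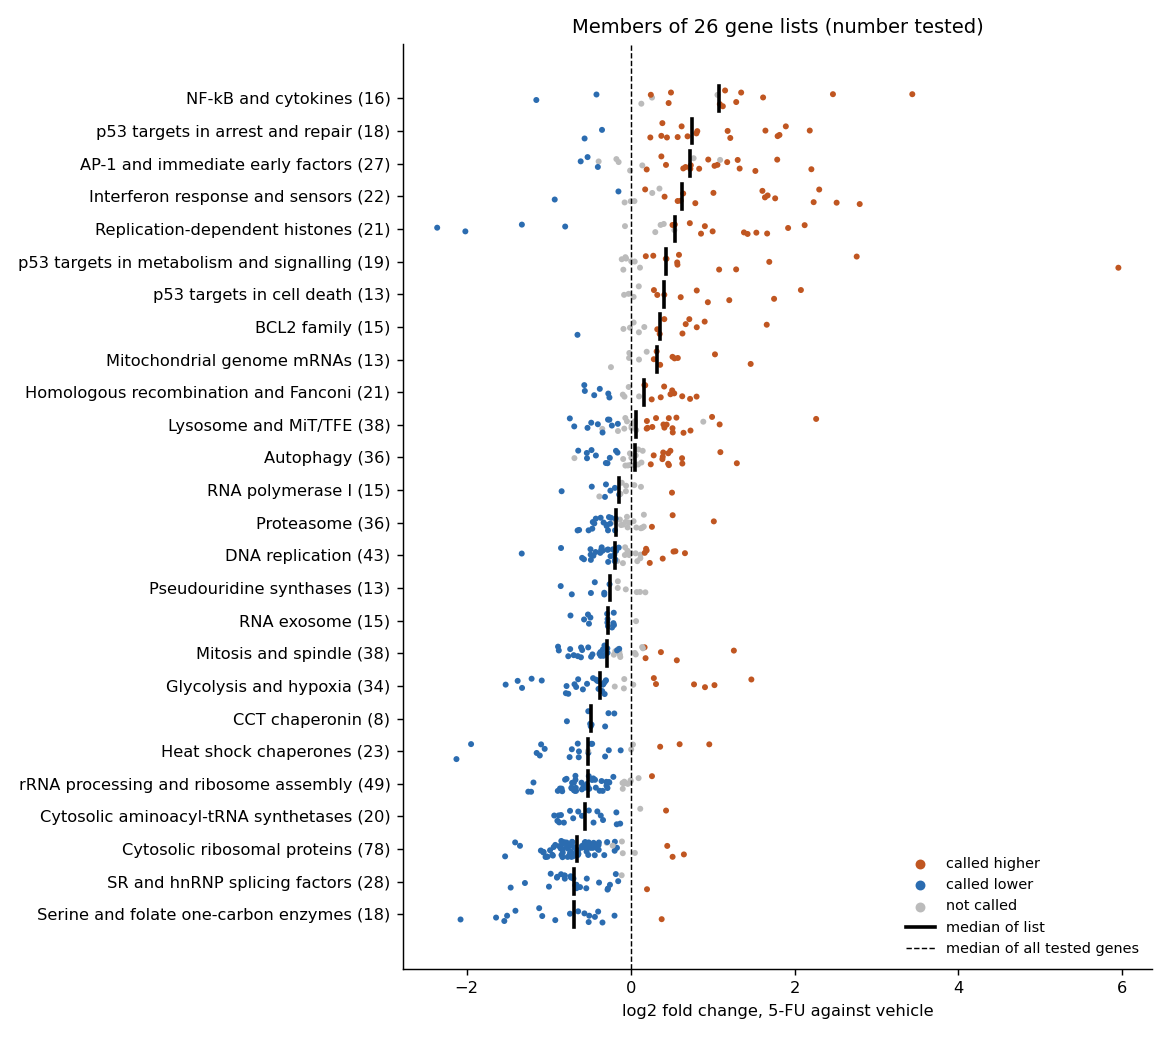
log2 fold change of 5-FU against vehicle for each tested member of 26 gene lists, sorted by median, with called rises in orange, called falls in blue and other members in grey. Black bars are list medians and the dashed line is the median of all tested genes (0.01): NF-kB and p53 lists lie to the right of it, and serine and folate, splicing and ribosomal protein lists to the left.

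Replication and mitosis genes had more falls than rises relative to the TMM scaling. Of all tested genes 29.5% fell. In the highest level class of protein-coding genes 1811 of 3415 fell and 633 rose. Whether replication and mitosis genes fell more often than other genes of their level was not tested. DNA replication genes had 24 falls and 8 rises of 43 tested, but 13 falls and 16 rises with library size alone, where the median of -0.19 became 0.0036. POLA1, the catalytic subunit of DNA polymerase alpha, read 121, 134, 136 and 135 CPM in vehicle and 52.1, 52.7 and 52.1 CPM with 5-FU, which were nearly identical among themselves (-1.33 ± 0.0608, edgeR adjusted p = 4.67e-10). GINS1, part of the replicative helicase, fell (-0.85 ± 0.0825), and POLE (0.66 ± 0.0591) and the licensing factor gene CDT1 (0.55 ± 0.105) rose. Among cyclins, CCND1 went from 96.9, 96.2, 104 and 99.5 to 56.3, 55.7 and 50.96 CPM (-0.87 ± 0.0550) and CCND2 fell alike (-0.93 ± 0.0662), E2F1 rose (0.40 ± 0.0803), and of the inhibitors CDKN2B rose (0.88 ± 0.0552) and CDKN1B fell (-0.35 ± 0.0555). Mitosis genes had 23 falls and 5 rises of 38 (median -0.29), against 15 falls and 9 rises (median -0.10) with library size alone. BUB1B, a spindle checkpoint kinase, read 140.1, 147, 145 and 158 CPM in vehicle and 73.4, 84.1 and 83.6 CPM with 5-FU (-0.88 ± 0.0579), CCNB1 fell from 337–364 to 238–254 CPM (-0.48 ± 0.0435), FOXM1, a factor that drives mitotic genes, rose (0.56 ± 0.0668).

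Replication-dependent histone mRNAs, which lack a poly(A) tail and are made in S phase, rose in 12 of 21 tested genes and fell in 4 (median 0.54). Of all tested genes 30.8% rose and 29.5% fell. In the lowest level class of protein-coding genes 45.3% rose and 9.37% fell (median 0.49), so scarce genes in general had a similar shift. Of 38 genes in the list 17 did not pass the filter, and those that did were low. H2AC11 went from 1.43, 1.20, 1.61 and 1.55 to 5.71, 5.47 and 5.34 CPM (1.92 ± 0.133) and H4C8 from 0.681–1.08 to 3.31–5.13 CPM (2.12 ± 0.196). H1-4 fell from 1.04–1.26 to 0.184–0.279 CPM (-2.36 ± 0.346).

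DNA repair genes moved in both directions. In the Fanconi and homologous recombination list 11 of 21 rose, 6 fell and 4 did not pass (median 0.17), a share of falls close to the 29.5% of all tested genes that fell. FANCD2, which is loaded at stalled forks, read 107, 116, 115 and 113 CPM in vehicle and 158, 158 and 165 CPM with 5-FU (0.51 ± 0.0442), clear of each other. BRCA1 (0.53 ± 0.0635), XRCC2 (0.80 ± 0.0744) and XRCC3 (0.73 ± 0.0985) rose, and BARD1, the partner of BRCA1 (-0.57 ± 0.0761), and FANCM (-0.56 ± 0.0679) fell. In base excision repair, which removes uracil, the glycosylase genes went apart: UNG fell from 197–209 to 163–166 CPM (-0.29 ± 0.0390) and TDG fell (-0.29 ± 0.0653, not called with library size alone), while SMUG1, the glycosylase that takes hydroxymethyluracil and fluorouracil, rose from 33.6, 31.2, 34.2 and 29.7 to 67.7, 54.5 and 61.01 CPM (0.92 ± 0.0791). Downstream of them APEX1 (-0.55 ± 0.0478) and LIG3 (-0.71 ± 0.0596) fell. Mismatch repair, which reads fluorouracil opposite guanine, had 4 falls, MSH3 (-0.83 ± 0.0892) and PMS1 (-0.55 ± 0.0732) among them, and 1 rise, MLH3 (0.99 ± 0.191), of 7 tested (3 and 3 with library size alone). The checkpoint kinase gene ATR fell from 81.01–98.1 to 40.9–47.8 CPM (-0.98 ± 0.0751), and RAD9A, which helps activate it, rose (1.03 ± 0.0928).

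Of 15 tested BCL2 family genes 9 rose and 1 fell (median 0.35), where 30.8% of all tested genes rose and 29.5% fell. The rises were of both kinds: the protective BCL2L1 rose (0.35 ± 0.0920), as did the pro-apoptotic BMF (0.67 ± 0.124), BAD (0.90 ± 0.131) and the scarce BIK (0.103–0.486 to 0.782–1.26 CPM, 1.66 ± 0.368). BCL2L11, which encodes the pro-apoptotic BIM, was the fall (43.6–45.3 to 27.6–29.4 CPM, -0.65 ± 0.0507). DIABLO, which frees caspases from their inhibitors, rose (1.46 ± 0.119), and CYCS, cytochrome c, fell (-0.53 ± 0.0797).

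Genes of the integrated stress response, which acts through ATF4, had 6 rises and 10 falls of 22 tested. The share of rises was near the 30.8% of all tested genes, and that of falls was above their 29.5%. Single members moved far. DDIT3, which encodes CHOP, read 6.81, 7.36, 6.13 and 6.86 CPM in vehicle and 47.5, 42.2 and 40.4 CPM with 5-FU (2.68 ± 0.0900, edgeR adjusted p = 2.7e-11), and ATF3 read 28.03, 29.2, 27.2 and 31.9 and 81.4, 80.6 and 83.7 CPM (1.49 ± 0.0706), both far out of the vehicle range. PPP1R15A, which restores translation, rose (1.75 ± 0.0837). ATF4 mRNA itself fell from 752–792 to 411–428 CPM (-0.87 ± 0.0431), and so did ASNS, asparagine synthetase (2.80–3.66 to 1.83–2.16 CPM, -0.78 ± 0.180). Amino acid carriers fell in 10 of 17 and rose in 3 (median -0.54): SLC7A5, the large neutral amino acid carrier, went from 259.8, 251, 269 and 254 to 106, 84.7 and 92.99 CPM (-1.45 ± 0.0668), the glutamine carrier gene SLC1A5 fell (-1.17 ± 0.0777), and SLC3A2, whose protein pairs with SLC7A5 and SLC7A11, rose (0.76 ± 0.0753). Cytosolic tRNA synthetases fell in 18 of 20 (median -0.55), TARS1 (-0.93 ± 0.0474) and MARS1 (-0.89 ± 0.0505) most, with AARS1 as the rise (0.43 ± 0.0612).

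The element through which ATF4 and its C/EBP partners act, searched as TGATGNAA on both strands, was in the promoters of 6 of 16 tRNA synthetase genes (37.5%), 4 of 15 amino acid carriers (26.7%) and 5 of 20 genes of the integrated stress response (25.0%), beside 1.67% of tested genes and 3.67% of all 27305 promoters. Of the 6 synthetase genes that hold the letters 5 fell and 1 rose, and of all 20 tested synthetase genes 18 fell and 1 rose. The share of falls with the letters was thus near that of the list. The 250 bases before the start are printed for ASNS, which fell, and for ATF3 and AARS1, which rose, with the matched letters in capitals (RefSeq, GRCh38.p14, 5′ to 3′ on the gene's strand; a match on the opposite strand shows its complement read backwards). They lie at chr7:97872409-97872658, minus strand (ASNS), chr1:212565157-212565406, plus strand (ATF3) and chr16:70289507-70289756, minus strand (AARS1).
ASNS: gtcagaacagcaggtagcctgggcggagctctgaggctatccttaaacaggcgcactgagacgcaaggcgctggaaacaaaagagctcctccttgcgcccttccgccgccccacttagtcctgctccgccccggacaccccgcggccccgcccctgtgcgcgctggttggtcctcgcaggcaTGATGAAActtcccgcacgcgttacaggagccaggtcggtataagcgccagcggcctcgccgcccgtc
ATF3: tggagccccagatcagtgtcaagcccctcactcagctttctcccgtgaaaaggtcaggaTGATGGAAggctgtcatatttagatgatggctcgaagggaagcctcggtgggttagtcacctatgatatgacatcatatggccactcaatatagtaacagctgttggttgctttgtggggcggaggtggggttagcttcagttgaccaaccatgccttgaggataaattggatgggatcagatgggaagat
AARS1: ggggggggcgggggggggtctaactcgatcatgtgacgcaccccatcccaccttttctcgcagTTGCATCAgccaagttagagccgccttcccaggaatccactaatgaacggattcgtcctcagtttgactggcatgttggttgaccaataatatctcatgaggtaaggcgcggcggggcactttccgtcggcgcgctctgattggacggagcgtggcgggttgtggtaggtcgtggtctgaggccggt

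Most cytosolic chaperone genes fell. Of 23 tested heat shock genes 17 fell and 3 rose (median -0.52). HSPA8, the constitutive HSC70, read 2708, 2753, 2726 and 2859.8 CPM in vehicle and 1276, 1291 and 1277 CPM with 5-FU, 3 nearly equal values, all below the vehicle range (-1.11 ± 0.0330, edgeR adjusted p = 1.08e-11). HSPB1, a small heat shock protein, was a rise (51.6, 47.3, 49.7 and 39.6 to 101, 81.5 and 92.3 CPM, 0.96 ± 0.0959), and so was DNAJB4 (0.60 ± 0.0949). All 8 subunits of the CCT chaperonin, which folds actin and tubulin, fell (median -0.48), CCT6A most (-0.78 ± 0.0465). Of 20 genes of endoplasmic reticulum chaperones and the unfolded protein response 12 fell, HSPA5 (-0.37 ± 0.0379) and HSP90B1 (-0.70 ± 0.0618) among them, 2 rose, ERN1 (0.41 ± 0.0684) and DNAJC3 (0.19 ± 0.0643), and 6 did not pass (median -0.20). DNAJC3 was not called without vehicle 2 (0.17), 5-FU 2 (0.12) or 5-FU 3 (0.18). With library size alone there were 7 falls and 5 rises (median -0.01). Proteasome subunits had 17 falls, 3 rises and 16 that did not pass of 36, and their median of -0.18 became 0.01 with library size alone (9 falls and 10 rises). In the highest level class of protein-coding genes 1811 of 3415 fell. Whether proteasome genes fell more often than other genes of their level was not tested. PSMA5 (-0.65 ± 0.0504) and PSMD1 (-0.63 ± 0.0451) fell, and the immunoproteasome gene PSMB10 rose from 0.769–1.02 to 1.28–2.28 CPM (1.02 ± 0.266).

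Of 27 tested AP-1 and immediate early genes 17 rose and 3 fell (median 0.73), where 30.8% of all tested genes rose and 29.5% fell. FOS read 0.495, 0.742, 0.681 and 1.495 CPM in vehicle and 4.07, 4.23 and 3.63 CPM with 5-FU (2.21 ± 0.268), with vehicle 4 the highest of its group yet below all 5-FU values. EGR1 was at 2.47, 1.03, 1.90 and 2.17 and 7.07, 6.85 and 5.82 CPM (1.79 ± 0.188), JUNB at 11.8, 11.98, 12.7 and 13.3 and 35.7, 29.1 and 27.9 CPM (1.31 ± 0.0996), and JUN itself was up by little (0.20 ± 0.0573). SRF (-0.53 ± 0.0856) and BATF3 (-0.61 ± 0.0906) fell. Beside ANKRD1, the YAP targets CCN1 (0.94 ± 0.118) and CCN2 (1.34 ± 0.327) rose. Of 20 Hippo-YAP genes 9 rose and 6 fell, TEAD4 (-0.66 ± 0.0731) and PTPN14 (-0.67 ± 0.124) among the latter. Of all tested genes 30.8% rose and 29.5% fell, so the share of falls in this list was near that of all genes.

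Among genes of NF-kB and its cytokines 11 of 16 tested rose and 2 fell, with the highest median of all lists (1.07). Over all tested genes 30.8% rose, and 45.3% of protein-coding genes in the lowest level class. Of 24 genes in the list 8 did not pass the filter on low counts, and a scarce gene could pass it through the group in which it was higher. RELB, a subunit of the alternative NF-kB pathway, read 2.20, 2.40, 1.99 and 1.495 CPM in vehicle and 13.2, 9.61 and 10.7 CPM with 5-FU (2.47 ± 0.141, edgeR adjusted p = 3.99e-09), and its partner NFKB2 45.5, 42.9, 42.5 and 42.7 and 103, 82.4 and 90.9 CPM (1.09 ± 0.0687). NFKB1, of the classical pathway, fell without overlap (53.1–56.8 to 40.5–41.6 CPM, -0.42 ± 0.0527). Leukocyte marker counts over 10 genes also differed between the libraries. They summed to 27 to 34 in vehicle 1 to 3, 305 in vehicle 4, 104 to 125 in 5-FU 1 and 3 and 240 in 5-FU 2. Of these markers 2 had 10 counts or fewer in all 7 libraries and none had 0 throughout. Different genes led these sums. LYZ had 108 counts in vehicle 4 and 1 in each of 5-FU 1 and 3, whereas CD8A had 15 in vehicle 4 and 48 and 68 there. The part of these markers in the rises was not tested. Without vehicle 4 and 5-FU 2 the list had 8 rises and 2 falls.

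Interferon-response genes rose in 15 of 22 tested and fell in 2 (median 0.63), where 30.8% of all tested genes rose, and 45.3% of protein-coding genes in the lowest level class. Of 28 genes in the list 6 did not pass the filter, which a scarce gene could pass through its higher group. The part of the leukocyte markers, whose counts are given above, was not tested for these genes either. Without vehicle 4 and 5-FU 2 the list had 14 rises and 2 falls. IFITM3 read 0.495, 0.856, 0.438 and 1.08 CPM in vehicle and 4.21, 3.86 and 4.27 CPM with 5-FU (2.51 ± 0.228), and IFITM1 went from 0.0571–0.535 to 1.91–3.05 CPM (2.80 ± 0.350), so both were scarce in every library. IRF1 (0.61 ± 0.127) and ISG15 (0.57 ± 0.157) rose, and the RNA sensor gene IFIH1 fell (-0.93 ± 0.123).

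NRF2 target genes did not move together. HMOX1, heme oxygenase, read 17.9, 17.6, 17.3 and 17.4 CPM in vehicle and 107, 92.8 and 96.7 CPM with 5-FU, the vehicle values within 1 CPM of each other (2.50 ± 0.0776, edgeR adjusted p = 1.23e-11), and NQO1 rose (1.22 ± 0.110). Of 20 tested genes 12 fell and 5 rose (median -0.30). GCLM, for glutathione synthesis (-0.32 ± 0.0598, not called with library size alone), TXNRD1 (-0.65 ± 0.0449), TKT, of the pentose phosphate pathway (-0.94 ± 0.0671), and PIR (-1.12 ± 0.119) fell.

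Glycolysis and hypoxia genes fell in 24 of 34 and rose in 6 (median -0.37), against 15 and 6 with library size alone. LDHA, lactate dehydrogenase A, read 568, 561, 573 and 554 CPM in vehicle and 206, 221 and 223 CPM with 5-FU (-1.38 ± 0.0415), with no 5-FU value near the vehicle range. HK2 (-1.21 ± 0.0549), PDK1 (-1.52 ± 0.0687) and VEGFA (-0.79 ± 0.0799) fell. The glucose carrier gene SLC2A3 (1.47 ± 0.124) and the brain-type aldolase gene ALDOC (1.02 ± 0.0792) rose. Sterol genes fell in 14 of 31 and rose in 3, against 11 and 10 with library size alone. The largest fall was that of INSIG1, a feedback protein of sterol synthesis (-1.21 ± 0.0573), and ABCG1, which exports cholesterol, rose (1.08 ± 0.255).

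Transcripts of the mitochondrial genome took a larger share of the libraries. They made up 1.52, 1.26, 1.30 and 1.43% of counts in vehicle 1 to 4 and 2.00, 2.53 and 2.40% in 5-FU 1 to 3. The lowest 5-FU library was above the highest vehicle library: 1.38% ± 0.117 (SD, n = 4) against 2.31% ± 0.278 (SD, n = 3), an exact two-sided permutation p of 0.0286, which is the smallest possible. The genes were uneven: of 13 mRNAs 8 rose, none fell and 5 did not pass in the edgeR fit (6 rises without vehicle 4 and 5-FU 2). At an unadjusted p under 0.05, and with DESeq2, 1 fell. MT-ND1 went from 964, 763, 800.2 and 910.0 to 2058, 2599.8 and 2459 CPM (1.46 ± 0.110) and MT-CO1 from 2651–3036 to 5284–6149 CPM (1.03 ± 0.0663), and MT-ND2 rose by less (0.51 ± 0.130). Nuclear genes for the same organelle were lower in part, with 16 falls and 3 rises of 35 respiratory chain genes and 31 falls and 7 rises of 61 mitochondrial ribosomal proteins. Their medians of -0.13 and -0.21 became 0.06 and -0.01 with library size alone, which gave 9 falls and 5 rises, and 19 falls and 16 rises. Of all tested genes 29.5% fell, and in the highest level class of protein-coding genes 1811 of 3415 fell. Whether these nuclear genes fell more often than other genes of their level was not tested. ATP5F1A (-0.64 ± 0.0517), MRPL39 (-0.98 ± 0.0679) and MRPS28 (-1.18 ± 0.139) fell, and NDUFB9 (0.35 ± 0.0767) and MRPS11 (0.44 ± 0.0548) rose. Of 12 polyamine genes 7 fell, 3 rose and 2 did not pass. The synthesis genes ODC1 (-0.54 ± 0.0601) and AMD1 (-0.98 ± 0.0624) fell, and SAT1, which breaks polyamines down, rose from 17.5, 18.9, 17.1 and 19.8 to 65.998, 67.5 and 68.4 CPM (1.88 ± 0.0571).

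Lysosome and autophagy genes were examined because chloroquine acts on lysosomes. Lysosomal hydrolases and membrane proteins had 14 rises and 7 falls of 30, where 30.8% of all tested genes rose and 29.5% fell. GPNMB, a lysosomal stress glycoprotein, read 0.769, 0.628, 1.12 and 1.13 CPM in vehicle and 4.12, 4.87 and 4.35 CPM with 5-FU (2.26 ± 0.171), NEU1 rose (0.99 ± 0.135), and CTSL (-0.69 ± 0.0554) and TPP1 (-0.74 ± 0.0789) fell. ATP6V0D2, a tissue-restricted subunit of the lysosomal proton pump, went from 0.220, 0.399, 0.0486 and 0.155 to 6.15, 6.76 and 5.78 CPM (4.92 ± 0.405), from near the limit of detection, while ATP6V1H fell (-0.45 ± 0.0545). Autophagy receptors and ATG8 proteins had 8 rises and no falls of 12 (median 0.33) in the edgeR fit, and the core machinery had 5 rises and 10 falls of 24, which with library size alone became 11 and 5. SQSTM1, the receptor p62, read 33.1, 36.3, 33.2 and 33.5 CPM in vehicle and 83.4, 63.3 and 71.4 CPM with 5-FU (1.10 ± 0.0926), OPTN rose (23.1–24.1 to 55.8–60.9 CPM, 1.30 ± 0.0479), and ATG7 (-0.64 ± 0.0619) and UVRAG (-0.53 ± 0.0653) fell.

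At the cell surface, the laminin gene LAMB3 (0.309–0.550 to 1.43–2.13 CPM, 2.12 ± 0.282), FN1, fibronectin (0.82 ± 0.0718), and the protease gene PLAU (1.65 ± 0.211) rose, and ITGA2 (-0.96 ± 0.100) and LAMA1 (-0.93 ± 0.0972) fell. Fibroblast marker counts over 10 genes were 224 to 270 in vehicle 1 to 3, 2581 in vehicle 4, 628 to 646 in 5-FU 1 and 3 and 925 in 5-FU 2, with 3 genes at 10 counts or fewer in all 7 libraries, and their part in the matrix genes was not tested. In 5-FU 1 and 3 most of these counts were of COL1A1 (557 and 560), and COL1A2 had 1 and 3. Vehicle 4 had 1051 of COL1A1 and 741 of COL1A2. Markers of the basal epithelial list, 4 of 18 with at most 10 counts throughout, summed to 3649 to 4449 counts in vehicle 1 to 3, 4450 in vehicle 4, 7017 to 8186 in 5-FU 1 and 3 and 7456 in 5-FU 2, to which DST, dystonin (1.14 ± 0.0788), added most. Of 13 tested markers of this list 9 rose, the simple-epithelium keratins KRT18 (0.32 ± 0.0669) and KRT8 (2.15 ± 0.110) among them, and 2 fell, SOX2 (-0.72 ± 0.0753) and ITGA6 (-0.50 ± 0.0639). NOG, which encodes the BMP antagonist noggin, rose from 1724, 1781, 1876 and 2118 to 4005, 3549 and 3491 CPM (0.97 ± 0.112), and BMP7 fell (-1.11 ± 0.0740). ID1, a BMP target, rose (1.06 ± 0.220), and AXIN2, a WNT target, fell (-0.69 ± 0.0620). These are single members of a list of BMP and WNT feedback genes with no common direction. Of its 21 tested genes 9 rose, 6 fell and 6 did not pass (median 0.0041). Semaphorins and their receptors had 9 rises and 4 falls of 18, where 30.8% of all tested genes rose and 29.5% fell. The receptor genes PLXNB3 (0.110–0.584 to 4.69–7.46 CPM, 4.03 ± 0.327) and PLXNA3 (32.6, 30.8, 30.8 and 30.5 to 155, 107 and 123 CPM, 2.04 ± 0.0996) rose most, and PLXNA2 (-0.38 ± 0.0848) and PLXNC1 (-0.38 ± 0.114) fell, neither of which was called with library size alone.

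The same step, 5-FU added to cells, was also taken with 10 µM chloroquine in both arms (combination against chloroquine, 3 libraries each), which shares no library with the comparison above. There 4846 genes rose (24.8% of those tested) and 5021 fell (25.7%). Of the 6003 genes that rose with 5-FU alone 2787 (46.4%) rose there too and 744 (12.4%) fell, and of the 5756 that fell 2955 (51.3%) fell and 570 (9.90%) rose. Of the large changes, 427 of the 593 falls of at least 1 on the log2 scale (72.0%) fell again, and 988 of the 2142 rises of that size (46.1%) rose again. The median log2 fold changes of the called rises and falls were 0.75 and -0.50 alone and 0.30 and -0.24 with chloroquine. A set chosen for its size in 1 comparison has smaller values in another for that reason too. Tested gene by gene, the difference between the steps was called for 4019 genes upward (20.6%) and 3772 downward (19.3%), and with library size alone for 2379 upward and 5063 downward, so the balance of these calls depends on the scaling. The effect was called smaller with chloroquine in 2614 of the called rises and 2724 of the called falls and larger in 312 and 312, in sets that were chosen as called without chloroquine.

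**Figure D5:**
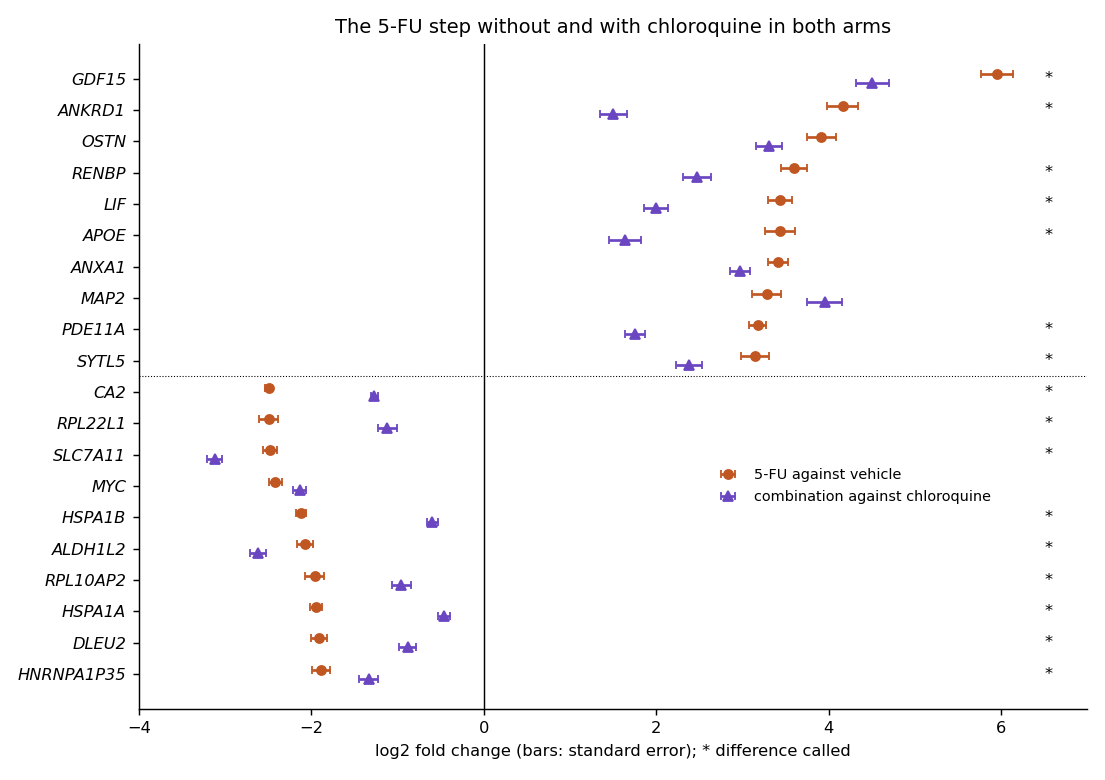
log2 fold change with standard error for the 20 named genes, for 5-FU against vehicle (circles) and for the combination against chloroquine (triangles), with an asterisk where the difference was called. All 20 genes keep their side of 0, MAP2, SLC7A11 and ALDH1L2 lie farther from it with chloroquine, and the asterisk is missing for OSTN, ANXA1, MAP2 and MYC.

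Each of the 10 rises and 10 falls was called in the same direction in the second setting. For ANKRD1 the log2 fold change was 1.50 ± 0.159 with chloroquine against 4.16 ± 0.179 alone, a difference of -2.66 ± 0.250 (edgeR adjusted p = 3.08e-06), and for GDF15 it was 4.51 ± 0.193 against 5.95 ± 0.183 (-1.45 ± 0.354, edgeR adjusted p = 0.00494). HSPA1A fell by far less with chloroquine (-0.46 ± 0.0735, difference 1.48 ± 0.0990), and so did CA2 (-1.27 ± 0.0444, difference 1.23 ± 0.0605). SLC7A11 (-3.12 ± 0.0871, difference -0.64 ± 0.125) and ALDH1L2 (-2.62 ± 0.0936, difference -0.55 ± 0.131) fell further there. The fall of MYC was not called different (-2.14 ± 0.0775 against -2.42 ± 0.0761, difference 0.28 ± 0.107, edgeR adjusted p = 0.0503).

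Lists are given with their counts in the second setting. Serine and folate genes fell in 13 of 18 with chloroquine (median -0.45), with the difference called upward in 4 and downward in 2. Targets of p53 in arrest and repair rose in 12 of 18 (median 0.81). For these targets the difference was called downward in 7 and upward in 3 (9 and 0 with library size alone). Genes of rRNA processing, of which 40 of 49 fell alone, had 12 rises and 18 falls with chloroquine, and the difference was called upward in 36. All 8 CCT subunits fell alone, 6 rose and none fell with chloroquine, and the difference was called in all 8. Proteasome genes changed from 3 rises and 17 falls to 22 rises and 2 falls (difference called upward in 31 of 36), and mitochondrial ribosomal proteins from 7 and 31 to 33 and 3 (upward in 51 of 61). AP-1 and immediate early genes went from 17 rises and 3 falls to 5 and 7, with the difference called downward in 13 of 27. The 13 mRNAs of the mitochondrial genome went from 8 rises and 0 falls to 3 and 7 (median 0.32 alone, -0.35 with chloroquine). Their difference was called downward in 10. With library size alone the difference was called upward in 30 rRNA processing, 22 proteasome and 37 mitochondrial ribosomal genes and in all 8 CCT subunits. It was called downward in 15 AP-1 and immediate early genes and in 12 mRNAs of the mitochondrial genome. These counts have as their background the 20.6% and 19.3% of all tested genes called different.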

How the data were processed

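Total RNA was sequenced after a directional library kit, per the labels' protocols. The authors deposited a table of whole-number read counts per gene symbol, and the submitters' processing notes name DESeq without a version and the build GRCm38, which is a mouse build and stands beside human symbols. The aligner, annotation and strand setting were not given in the sources used here. Groups were taken from the labelled treatment, and 19514 of 60591 genes passed edgeR's filterByExpr, which kept at least 99.84% of each library's counts, while 20102 genes had 0 in every library. Totals of 18927168 to 23679833 counts per library set the precision of the values.

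Counts were tested with edgeR 4.0.16 in R 4.3.3 (TMM scaling, a mean per group over all 13 libraries, quasi-likelihood F test, Benjamini-Hochberg adjustment over all tested genes, calls at 0.05). The SE of a log2 fold change is its size divided by the square root of F. CPM are TMM-scaled. Shares of counts were compared by an exact two-sided permutation test (35 arrangements of the 7 libraries). Gene classes and spans came from GENCODE 29 by symbol (18709 of the tested genes matched) and promoters from a RefSeq table of GRCh38.p14, 250 bases before to 50 bases after the start.

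The genes in the text are the 10 largest rises and 10 largest falls under the conditions given there, key genes of 56 lists, and, of each list, at most 2 called rises and 2 called falls of the largest size, beside marker genes chosen after their values were seen. The comparison, the lists and the markers were chosen with earlier results of these data known. Alternatives were DESeq2 size factors, library size alone, the Wald test of DESeq2 1.42.0, no filter, a filter at 10 CPM in 3 libraries, a replicate block, only the 7 libraries, libraries without transcripts of other tissues, and leaving out each library. Same-numbered vehicle and 5-FU libraries deviated together in part only (correlations of 0.28, -0.44 and 0.36). The labels do not say whether the numbers mark pairs, and no pairing was used in the main fit.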

Additional observations from a re-analysis of the deposited data

Results flagged for a closer look

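In the vehicle group of 4 libraries, 1 library lay apart from the other 3 in 21 of 228 named genes by Dixon's test at the 95% level, a test that flags about 1 in 20 groups by chance. Vehicle 4 was the outlying library in 5 of them, with CCN1 at 17.63 CPM, CTSL at 72.75 CPM, FN1 at 43.15 CPM, MALAT1 at 60.69 CPM and ODC1 at 444.6 CPM. Vehicle 1 stood apart for NFKB2 (45.45 CPM), NPM1 (1309 CPM), PLXNA3 (32.59 CPM), POLA1 (121.1 CPM) and POLR1A (130 CPM). Vehicle 2 did for ABCA12 (0.1141 CPM), BARD1 (36.52 CPM), BBC3 (12.21 CPM), BCL2L1 (23.51 CPM), HK2 (113.8 CPM), HSP90B1 (1106 CPM), SLC2A3 (3.652 CPM), SOX2 (16.38 CPM), SQSTM1 (36.29 CPM) and TKT (389.4 CPM), and vehicle 3 for DLEU2 (35.46 CPM). In each of the 21 genes the call held without the outlying library.

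The effect of 5-FU differed between cells without and with chloroquine, by the interaction term of the edgeR fit, in 16 of the 20 genes with the largest changes. These genes were chosen for their size without chloroquine, which by itself favours a smaller effect in the other setting, and 20.6% of all tested genes were called different upward and 19.3% downward. The differences (with minus without chloroquine, log2) among genes that rose were -1.45 for GDF15, -2.66 for ANKRD1, -1.13 for RENBP, -1.44 for LIF, -1.79 for APOE, -1.42 for PDE11A and -0.77 for SYTL5. Among genes that fell they were 1.23 for CA2, 1.38 for RPL22L1, 1.53 for HSPA1B, 1.48 for HSPA1A, 1.01 for RPL10AP2, 1.03 for DLEU2 and 0.55 for HNRNPA1P35, and -0.64 for SLC7A11 and -0.55 for ALDH1L2, which fell further with chloroquine.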

How the results depend on the processing

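The counts of 6003 rises and 5756 falls were 5971 and 5794 with DESeq2 size factors, 5563 and 5635 with the Wald test of DESeq2, 6237 and 5857 with no filter (40489 genes), 5740 and 5420 in a fit of the 7 libraries alone, and 5449 to 5944 and 5312 to 5786 when each library was left out. A filter at 10 CPM left 11044 genes, with 3925 rises and 3966 falls, and library size alone gave 8291 and 3669. Of the 11759 calls 9672 kept their direction with library size alone and 2 were called the opposite way, while 11725 did with DESeq2 size factors, 11095 with the Wald test and 10678 without vehicle 4 and 5-FU 2. With chloroquine in both arms, leaving out each library gave 4136 to 4615 rises and 4397 to 4599 falls. The difference between the settings gave 3439 to 4429 genes upward and 3263 to 3915 downward in this way, and 2379 upward and 5063 downward with library size alone. A fit of only the 8 libraries without transcripts of other tissues also left out libraries with chloroquine. It called fewer genes than the main fit for the step with chloroquine and for the difference, in both directions. Fewer libraries lower such counts too, and the part of these transcripts was not tested. With the replicate number as a block 5794 genes rose and 5598 fell, and 10949 of the calls were kept. Same-numbered vehicle and 5-FU libraries had correlations of 0.28, -0.44 and 0.36 between their deviations. For chloroquine and combination libraries these were -0.44, 0.46 and 0.52. With signs this mixed, whether the numbers mark pairs cannot be settled.

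Without vehicle 4 and 5-FU 2 the ribosomal protein share differed by -1.19 percentage points and the mitochondrial share by 0.839 (exact permutation p = 0.1 each, the smallest that 10 splits allow). With 1 library left out the differences ran from -1.20 to -1.06 and from 0.821 to 1.09, and p rose to 0.0667 or 0.1 because fewer splits remain. Of 228 named genes 216 kept their direction and their side of the threshold under every alternative, 12 changed side at least once, and UMPS changed sign with library size alone (0.0166). Of 112 list counts 51 stayed within 1.5 times under every alternative. The labels do not say what separates the replicates. Transcripts of other tissues in vehicle 4, 5-FU 2 and some libraries with chloroquine limit what can be said of scarce tissue genes.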
